A study of Mus musculus with 4 samples.

Results

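The genes described here are the MiT/TFE transcription factors Tfeb, Tfe3, Tfec and Mitf, and the folliculin complex genes Flcn, Fnip1 and Fnip2. They were chosen by name, with earlier results of these data known, and all 7 were found among the 22138 genes of the table. The table lists 4 of them under these symbols and holds Tfeb, Tfe3 and Tfec under the older symbols Tcfeb, Tcfe3 and Tcfec, which were matched by Ensembl gene ID. The libraries came from TT2 cells, female mouse embryonic stem cells derived from C57BL/6xCBA and grown in serum and LIF with no feeder cells. All 4 libraries had been transfected with siRNA, at 100 nM and again at 50 nM after 24 hours, and were collected about 72 hours after the later transfection. In 2 libraries the siRNA was a control, and in 2 it was directed against Hnrnpk, the gene of the nucleic acid binding protein hnRNP K. The siRNA sequences, the number of siRNAs and whether the replicates, which the submitters call biological, came from separate cultures are not given in the labels. The p-values therefore measure only the spread between these samples, which may be technical.

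MiT/TFE factors are basic helix-loop-helix leucine zipper proteins that bind E-box sequences as homodimers or heterodimers and switch on genes of lysosomes and autophagy. When nutrients are plentiful, Rag GTPases on the lysosome recruit TFEB and TFE3 to the kinase complex mTORC1, whose phosphorylation keeps them in the cytoplasm. Folliculin, with FNIP1 or FNIP2, is the GTPase-activating protein for RagC and RagD in this step. In mouse embryonic stem cells folliculin and its partners are known to be needed for leaving the naive pluripotent state, by keeping TFE3, an activator of Esrrb, out of the nucleus. RNA levels report neither phosphorylation nor location, so none of this control was measured here.

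The values were RPKM, reads scaled to gene length and library size, so levels can be set side by side between genes. The targeted gene was examined in every library before the members. Hnrnpk stood at 236 and 226 RPKM after control siRNA and at 68.0 and 70.5 RPKM after Hnrnpk siRNA, in the direction of the labels. Its log2 change was -1.73 (SE 0.0629, limma adjusted p = 6.59e-08). The libraries had relative depths of 0.882 to 1, judged from the steps between low values, and RPKM sums of 359659 to 390467. All 8 embryonic stem cell markers read were present in every library, among them Pou5f1 at 245 to 301 RPKM, and they did not keep one level: Nanog (log2 change 0.82) and Dppa5a (0.83) were called higher, Sox2 (-0.54), Utf1 (-0.29), Tdgf1 (-0.24) and Lin28a (-0.19) lower, and Pou5f1 and Zfp42 were not called.

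Of the 7 members, 6 passed the filter of a mean of at least 0.5 RPKM and were tested, and 4 were called, meaning that limma gave them a p below 0.05 after Benjamini-Hochberg adjustment over all genes tested. Flcn and Fnip1 were higher after Hnrnpk siRNA, and Tfe3 and Fnip2 were lower. The background was high: 67.2% of the 12486 genes tested were called, 32.2% higher and 35.0% lower. The members' share of calls was therefore close to that of all genes. In the 6 tested members the values of the groups did not overlap, as in 84.7% of all genes tested. The size of the Flcn change was less common, since 8.51% of genes tested were called with a change of at least 2-fold in either direction.

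**Figure D1:**
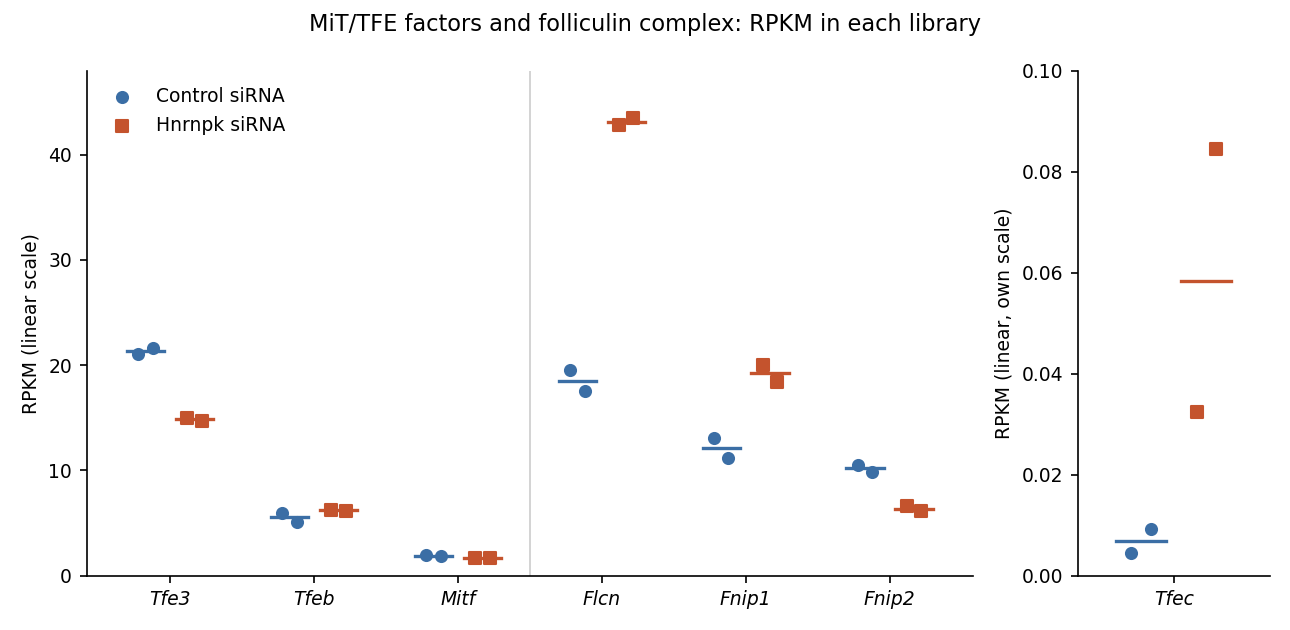
RPKM of each member in each library, on linear axes; circles are control siRNA libraries, squares are Hnrnpk siRNA libraries (2 of each), and horizontal lines are group means. Tfec has its own axis because no library exceeded 0.0844 RPKM. Flcn rises from 17.6 and 19.5 RPKM to 42.8 and 43.5 RPKM, while Tfe3 and Fnip2 lie lower after Hnrnpk siRNA.

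Flcn encodes folliculin, the tumour suppressor lost in Birt-Hogg-Dubé syndrome. Flcn was at 19.5 and 17.6 RPKM with control siRNA, against 42.8 and 43.5 RPKM with Hnrnpk siRNA. The lowest Hnrnpk siRNA value was 2.2 times the highest control value. The means were 18.5 ± 1.38 and 43.1 ± 0.452 RPKM (SD, n = 2 each), a ratio of 2.33. On the log2 scale the difference was 1.20 (SE 0.0699, limma adjusted p = 8.76e-07), the 338th highest of the 12486 genes tested. It was the largest change among the 6 tested members.

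FNIP1 and FNIP2 are partner proteins that bind folliculin and are required for its activity. Fnip1 was at 13.1 and 11.2 RPKM with control siRNA, against 20.02 and 18.4 RPKM with Hnrnpk siRNA. Both Hnrnpk siRNA libraries were above both controls, with means of 12.1 ± 1.34 and 19.2 ± 1.13 RPKM (SD, n = 2 each). The log2 change of Fnip1 was 0.65 (SE 0.0860, limma adjusted p = 0.000123). Fnip2 moved the other way, from 10.5 and 9.85 RPKM in the control libraries to 6.60 and 6.13 RPKM after Hnrnpk siRNA. Its means were 10.2 ± 0.490 and 6.37 ± 0.329 RPKM (SD, n = 2 each), and the log2 difference was -0.64 (SE 0.0777, limma adjusted p = 6.74e-05).

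The opposite changes shifted the balance between the partners. The level of Fnip1 relative to Fnip2 went from 1.19 ± 0.0740 to 3.02 ± 0.0219 (SD, n = 2 each), with no overlap between groups. The summed level of both partners went from 22.3 ± 1.83 to 25.6 ± 1.46 RPKM (SD, n = 2 each). Flcn stood below that sum in the control libraries, at 0.826 and 0.835 of it, and above it after Hnrnpk siRNA, at 1.61 and 1.77 times. These sums and ratios were formed from the members' own values and were not tested.

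The promoters of the folliculin complex genes are shown because Flcn and Fnip1 rose together while Fnip2 fell. The sequences are RefSeq's on GRCm38.p6, a later build than the mm9 named for the authors' files, and each gives the 250 bases before the annotated start, 5′ to 3′ on the gene's strand. Capitals mark matches to the motifs searched on both strands: the CLEAR element, an extended E-box palindrome that MiT/TFE factors are known to bind in lysosomal genes, its core CACGTG, the variant E-box CATGTG, and TGACGTCA, the palindrome bound by CREB and ATF factors. The last motif was added after the Flcn promoter had been read.
Flcn, chr11:59810040-59810289, minus strand: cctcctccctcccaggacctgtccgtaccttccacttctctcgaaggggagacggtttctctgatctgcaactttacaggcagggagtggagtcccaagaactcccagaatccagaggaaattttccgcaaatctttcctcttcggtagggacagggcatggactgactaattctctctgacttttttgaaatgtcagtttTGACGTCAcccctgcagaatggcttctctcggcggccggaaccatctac
Fnip1, chr11:54437929-54438178, plus strand: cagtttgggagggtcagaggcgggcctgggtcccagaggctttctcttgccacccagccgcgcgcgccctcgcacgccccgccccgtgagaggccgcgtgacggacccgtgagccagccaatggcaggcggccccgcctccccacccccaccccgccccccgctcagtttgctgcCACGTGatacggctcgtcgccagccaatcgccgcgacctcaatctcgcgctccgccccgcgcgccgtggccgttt
Fnip2, chr3:79567680-79567929, minus strand: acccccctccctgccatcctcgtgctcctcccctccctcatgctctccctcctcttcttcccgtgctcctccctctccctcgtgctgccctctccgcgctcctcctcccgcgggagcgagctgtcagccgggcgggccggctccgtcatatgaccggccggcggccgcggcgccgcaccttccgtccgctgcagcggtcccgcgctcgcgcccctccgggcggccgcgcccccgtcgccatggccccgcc

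The rising genes did not share a motif among those searched. The Flcn window held TGACGTCA, the motif added after that promoter had been read, with its first base at position -49 from the start. Of the 32851 RefSeq promoter windows of that length, 1.55% held it, a share that cannot weigh a match chosen in this way. The Fnip1 window held CACGTG at position -75, and 6.02% of all windows held it. No window of the 7 members held the whole CLEAR element, found in 0.24% of windows, or CATGTG, found in 12.3%. Among the other members' windows, 1 of the 3 annotated Mitf start sites held TGACGTCA, at position -153, and those of Tfeb, Tfe3 and Tfec held no match. A match describes letters only, and binding was not measured. The windows differed in base composition, with 52.0% G or C before Flcn, 73.6% before Fnip1 and 76.8% before Fnip2.

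Tfe3 was the most abundant MiT/TFE transcript in every library. It was at 21.0 and 21.6 RPKM with control siRNA, against 15.0 and 14.7 RPKM with Hnrnpk siRNA. Both Hnrnpk siRNA libraries were below both controls, with means of 21.3 ± 0.425 and 14.8 ± 0.221 RPKM (SD, n = 2 each), a ratio of 0.697. On the log2 scale the difference was -0.51 (SE 0.0646, limma adjusted p = 9.31e-05). Tfe3 therefore fell while Flcn rose, and the level of Flcn relative to Tfe3 went from 0.928 and 0.812 to 2.85 and 2.96. That ratio was not tested.

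Tfeb, the family member best known as the driver of lysosome formation, was at 5.94 and 5.13 RPKM with control siRNA, against 6.26 and 6.17 RPKM with Hnrnpk siRNA. The groups did not overlap, but the lowest Hnrnpk siRNA value was 1.04 times the highest control value. The log2 change was 0.16 (SE 0.0872, 95% interval -0.039 to 0.35) and was not called (limma adjusted p = 0.137). It was called without control replicate 1, at 0.25 (adjusted p = 0.0154). It was also called under quantile normalization, at 0.22 (adjusted p = 0.0333), and with each library's trend on GC content removed, at 0.41 (adjusted p = 0.00103). Over all alternatives the adjusted p ranged from 0.00103 to 0.535.

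Mitf, which governs melanocytes, osteoclasts and the retinal pigment epithelium, was listed at 1.93 and 1.87 RPKM after control siRNA and at 1.65 and 1.66 RPKM after Hnrnpk siRNA. The log2 change was -0.15 (SE 0.0872, 95% interval -0.35 to 0.041) and was not called (limma adjusted p = 0.141). With GC trends removed it was called, at -0.23 (adjusted p = 0.0291), in a range of 0.0291 to 0.704 over the alternatives. A value per gene sums over start sites and isoforms, so the forms of Mitf that begin in different tissues cannot be told apart.

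Tfec, a family member found mainly in macrophages, was close to 0 everywhere. It was listed at 0.00453 and 0.00922 RPKM with control siRNA, against 0.0323 and 0.0844 RPKM with Hnrnpk siRNA. The Hnrnpk siRNA values were the higher ones, but all lay far below the filter and the gene was not tested. With no filter its log2 change was 0.14 on a scale with 0.5 RPKM added, not called at a limma adjusted p of 0.189.

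The MiT/TFE transcripts together came to 28.9 and 28.6 RPKM with control siRNA and to 22.9 and 22.6 RPKM with Hnrnpk siRNA. Tfe3 made up 72.7% and 75.5% of the total with control siRNA and 65.4% and 65.0% after Hnrnpk siRNA. The share of Tfeb went from 20.6% and 17.9% to 27.3% in both Hnrnpk siRNA libraries. The change of Tfeb itself was not called, and Tfe3 was called lower. These sums and shares were not tested. Tfe3 was the largest part of the sum in every library.

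In the control libraries the order of mean levels was Tfe3, Flcn, Fnip1, Fnip2, Tfeb, Mitf and Tfec, and the values of neighbours in that order did not overlap. After Hnrnpk siRNA the order became Flcn, Fnip1, Tfe3, Fnip2, Tfeb, Mitf and Tfec. In that group the values of Fnip2 and Tfeb overlapped and those of the other neighbours did not.

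**Figure D2:**
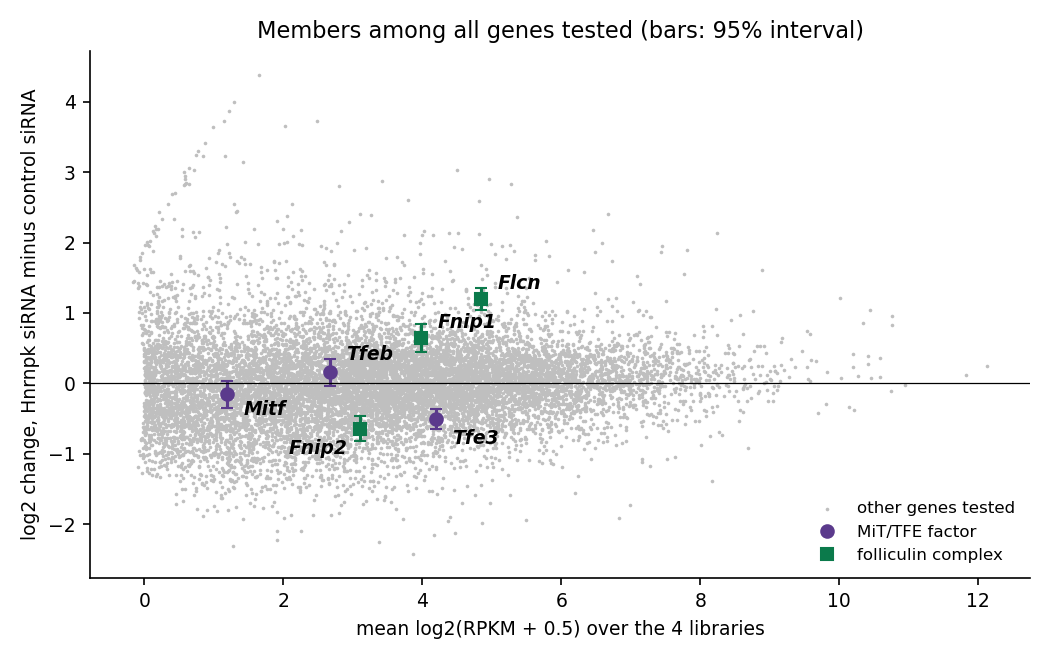
Log2 change (Hnrnpk siRNA minus control siRNA) against mean log2(RPKM + 0.5) for all 12486 genes tested (grey), with the 6 tested members marked by circles (MiT/TFE factors) and squares (folliculin complex) and bars for their 95% intervals. Flcn, at 1.20, lies above most genes of a similar level, and the intervals of Tfeb and Mitf cross 0.

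**Figure D3:**
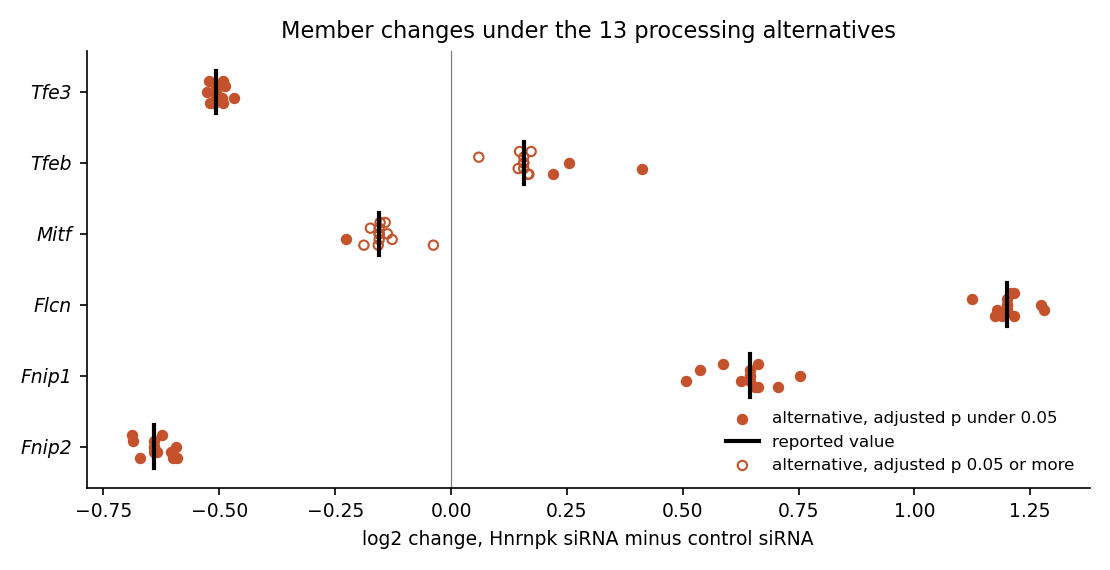
Log2 change (Hnrnpk siRNA minus control siRNA) of the 6 tested members under each of 13 alternatives; filled points were called, open points were not, and the bar is the reported value. Flcn stays between 1.13 and 1.28, and only Tfeb and Mitf have points on both sides of the call.

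By Euclidean distance between profiles of log2(RPKM + 0.5), each taken minus its control mean over the same 4 libraries, the genes nearest to Flcn were Bmi1, Unc45b and Wnt7b. Bmi1, a Polycomb subunit, went from 0.899 ± 0.0854 to 2.76 ± 0.0341 RPKM (SD, n = 2 each), at a distance of 0.0355. Unc45b, a myosin chaperone, lay at a distance of 0.0491, and Wnt7b, a Wnt ligand, at 0.0509. With 4 libraries such likeness says little more than that the genes changed by a similar amount on this scale. Their log2 changes were 1.22, 1.17 and 1.23. The scale understates changes of low genes, and the ratios of RPKM means were 3.07, 4.31 and 2.635, against 2.33 for Flcn. Unc45b had a control mean of 0.301 RPKM, below the filter of 0.5 RPKM, and passed it only through the Hnrnpk siRNA libraries.

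Around the members, the Rag GTPases and the Ragulator complex that anchors them to the lysosome were followed as a list of 10 genes. All 10 were tested, 3 were called higher and 1 lower, where 32.2% and 35.0% of all genes tested were, so the share called higher was near the background. The median log2 change was 0.098, against -0.015 over all genes tested. Rragc, which encodes the GTPase that folliculin acts on, was at 19.1 and 17.5 RPKM with control siRNA, against 39.3 and 41.2 RPKM with Hnrnpk siRNA (log2 change 1.12, SE 0.0691, limma adjusted p = 1.16e-06). Those levels were close to those of Flcn in each library. Rragd, its paralog, was at 13.2 and 13.9 against 14.8 and 14.3 RPKM and was not called (log2 change 0.10, SE 0.0685, limma adjusted p = 0.209). The list of known MiT/TFE targets read below held Rragd but not Rragc or any member.

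RagA and RagB are the GTPases that pair with RagC or RagD, and of their transcripts Rragb was called and Rraga was not; the difference between them was not tested. Rragb fell from 15.4 and 15.6 RPKM to 6.79 and 6.98 RPKM (log2 change -1.12, SE 0.0691, limma adjusted p = 1.16e-06). Rraga, the more abundant of the pair, had a log2 change of 0.093 and was not called (limma adjusted p = 0.271). In Ragulator, Lamtor1, whose lipid-modified protein tethers the complex to the membrane, rose from 74.5 and 73.9 RPKM to 125 and 150 RPKM (log2 change 0.88, limma adjusted p = 1.57e-05). Lamtor4 had a log2 change of 0.22 (limma adjusted p = 0.0294), and without control replicate 1 the call was lost (log2 change 0.17), as it was with Hnrnpk siRNA replicate 2 left out (0.13); the adjusted p had a range of 0.00386 to 0.238 over the alternatives.

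Upstream of the Rag GTPases, the list of GATOR complexes, KICSTOR and amino acid sensors had 16 tested genes. Of these, 3 were called higher and 8 lower, beside 32.2% and 35.0% of all genes tested, with a median log2 change of -0.23; with no filter on low values the calls numbered 1 and 6. Castor1, an arginine sensor, fell from 58.8 and 56.6 RPKM to 31.1 and 31.2 RPKM (log2 change -0.88, SE 0.0609, limma adjusted p = 2.22e-06). Within the sestrin family, Sesn2, also a known stress-response gene, had a log2 change of 0.73 (limma adjusted p = 2.09e-05), and Sesn3 one of -0.68 (limma adjusted p = 4.62e-05). Kptn, a KICSTOR subunit, had a log2 change of -0.56 (limma adjusted p = 0.000204). The other genes called higher, named after their values were seen, were Nprl2 of GATOR1 (0.36) and Sesn1 (0.37). Sesn1 lost its call when Hnrnpk siRNA replicate 2 was left out (log2 change 0.29).

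Among mTORC1, TSC and Rheb genes, 3 of 10 tested were called higher and 4 lower, shares near the 32.2% and 35.0% of all genes tested, with a median log2 change of -0.032. The transcripts of the kinase and of its substrate-binding subunit fell. Mtor went from 29.4 and 26.6 RPKM to 18.9 and 18.0 RPKM (log2 change -0.59, SE 0.0722, limma adjusted p = 7.05e-05). Rptor went from 18.1 and 18.5 RPKM to 10.3 and 10.1 RPKM (log2 change -0.81, SE 0.0667, limma adjusted p = 6.09e-06). Mlst8, the third core subunit, had a log2 change of 0.51 (limma adjusted p = 0.000281), and Tbc1d7, of the TSC complex that restrains Rheb, one of -0.49 (limma adjusted p = 0.000161). Named after their values were seen, Tsc2 had a log2 change of -0.45 and Rheb, the activator of mTORC1, one of 0.36. Tsc1 was called at 0.29 (limma adjusted p = 0.0187), and that call was lost when control replicate 2 (0.18), Hnrnpk siRNA replicate 1 (0.27) or Hnrnpk siRNA replicate 2 (0.32) was left out.

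AMPK, the energy-sensing kinase that binds FNIP proteins, had 4 of 6 tested subunit genes called higher and 2 lower, beside 32.2% and 35.0% of all genes tested, with a median log2 change of 0.36. Prkab1 rose from 21.2 and 24.1 RPKM to 41.2 and 42.6 RPKM (log2 change 0.88, SE 0.0739, limma adjusted p = 7.11e-06). Prkag1 and Prkab2 followed with log2 changes of 0.46 and 0.44, and Prkaa1, named after its values were seen, with 0.29. Prkag2 fell by 0.45 on the log2 scale (limma adjusted p = 0.00169). Prkaa2, also named after its values were seen, had a log2 change of -0.40, and without Hnrnpk siRNA replicate 2 it was at -0.30 and no longer called, which left 1 subunit called lower.

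The list of calcineurin, 14-3-3, export and turnover genes, which act on TFEB and TFE3 proteins, had 5 of 17 tested genes called higher, 4 lower and a median log2 change of 0.015. Neither share was above that of all genes tested, 32.2% and 35.0%. Sfn, the 14-3-3 sigma gene and a known p53 target, was at 37.7 and 40.9 RPKM after control siRNA and at 73.1 and 74.3 RPKM after Hnrnpk siRNA (log2 change 0.90, SE 0.0653, limma adjusted p = 2.84e-06). Mcoln1, the lysosomal calcium channel that activates calcineurin and is itself a known MiT/TFE target, had a log2 change of 0.71 (limma adjusted p = 4.05e-05). The catalytic calcineurin subunits Ppp3cb and Ppp3cc had log2 changes of -0.77 and -0.63. Without Hnrnpk siRNA replicate 1 the genes called higher numbered 3, because Ppp3r1 (log2 change 0.17) and Map4k3 (0.24) were no longer called. Under quantile normalization 7 genes were called lower.

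Known target genes of the MiT/TFE factors, mostly lysosomal and autophagy genes, were mainly higher. Of 31 tested, 23 were called higher and 4 lower, against 32.2% and 35.0% of all genes tested, and the median log2 change was 0.61. The list was chosen with earlier results of these data known, so its shares are not an independent comparison with all genes. Ctsd, a lysosomal protease, rose from 96.2 and 84.0 RPKM to 315 and 345 RPKM (log2 change 1.87, SE 0.0820, limma adjusted p = 1.57e-07). Tpp1, a lysosomal peptidase, rose from 30.8 and 29.0 RPKM to 106 RPKM in both Hnrnpk siRNA libraries (log2 change 1.81, SE 0.0624, limma adjusted p = 5.24e-08). Hexa, a hexosaminidase subunit, and Lamp1, the main lysosomal membrane protein, had log2 changes of 1.68 and 1.61.

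These 4 log2 changes were larger than that of Flcn. Over all alternatives the number of targets called higher lay between 20 and 24 and the median between 0.53 and 0.69. The 4 genes called lower, named after their values were seen, were Sgsh (-0.86), Gpnmb (-0.60), Gusb (-0.50) and Wipi1 (-0.42). Gpnmb is a target often used to read out TFE3 activity, and it went from 1.23 and 1.05 RPKM to 0.570 and 0.599 RPKM. The Wipi1 call was lost without control replicate 1 (log2 change -0.19) and without either Hnrnpk siRNA replicate (both -0.42). Ppargc1a, a target in muscle and fat, was at most 0.0109 RPKM and was not tested.

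**Figure D4:**
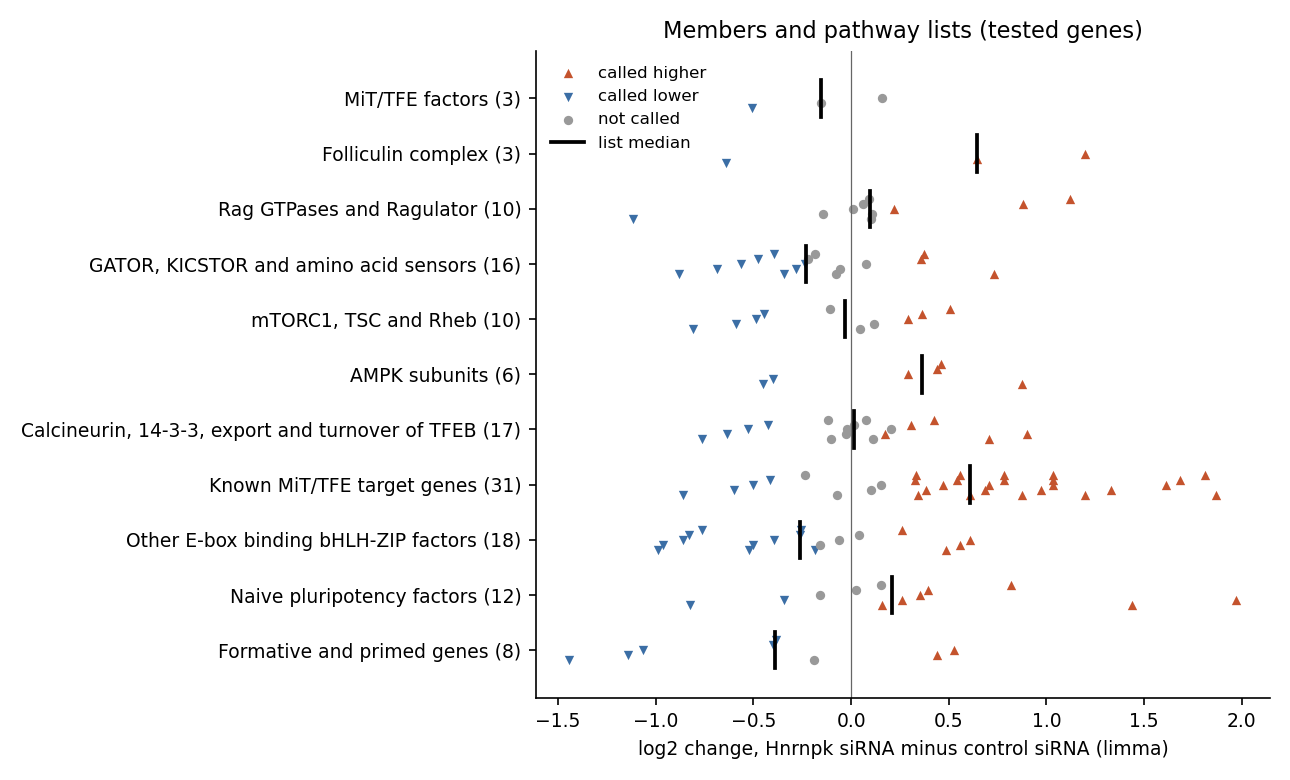
Log2 change of each tested gene in the members' 2 groups and in 9 pathway lists, with the number tested in parentheses; upward triangles were called higher, downward triangles lower, circles were not called, and bars are list medians. The known MiT/TFE target genes lie mostly to the right, with 23 of 31 called higher and a median of 0.61.

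Markers of other cell types in which MiT/TFE factors are active were read in the same libraries. The 9 macrophage and osteoclast markers summed to 15.9 and 13.9 RPKM in the control libraries and to 53.6 and 54.5 RPKM after Hnrnpk siRNA, so this sum moved with the lysosomal targets, and its part in their change was not tested. The rise of the sum lay in Cd68, which encodes a lysosomal membrane protein and went from 10.9 and 9.79 RPKM to 47.0 and 47.5 RPKM, and in Spi1, from 0.312 and 0.321 RPKM to 2.99 and 3.27 RPKM. Spi1 had a control mean of 0.316 RPKM, below the filter of 0.5 RPKM, and passed it only through the Hnrnpk siRNA libraries. Itgam went the other way, from 0.447 and 0.389 RPKM to 0.0678 and 0.06415 RPKM, and was below the filter. The defining markers Csf1r, Ptprc and Adgre1 were at most 0.00842 RPKM in any library. Of the 8 pigment cell markers, summing to 11.5 and 10.7 against 12.1 and 12.8 RPKM, Tyr, Dct and Tyrp1 were at most 0.0410 RPKM, and the tested markers moved in opposite directions. Mlana rose from 1.12 and 1.07 RPKM to 4.25 and 5.07 RPKM, and Pmel, the most abundant, fell from 10.3 and 9.54 RPKM to 7.50 and 7.44 RPKM. Trpm1, below the filter and not tested, went from 0.0462 and 0.0411 RPKM to 0.262 and 0.241 RPKM. The 9 fibroblast markers summed to 10.6 and 8.94 RPKM and then to 5.88 and 6.27 RPKM. Most of that fall was in Thy1, from 6.90 and 5.196 RPKM to 2.22 and 2.28 RPKM, and Col1a1 was also called lower, while Pdgfra rose from 0.191 and 0.149 RPKM to 0.835 and 0.961 RPKM. In bulk RNA, a change in the share of some cells and a change in RNA per cell cannot be told apart.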

How the data were processed

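RNA-seq was done by the submitters on 4 libraries, 2 per group; per the submitters' processing notes, BWA, SAMtools and the mm9 build were used, and the role of each, the counting tool and the annotation were not stated in the sources used. The labels call the RNA both poly(A)-selected and depleted of ribosomal RNA. The authors deposited RPKM per gene, 1 column for each library.

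Log2(RPKM + 0.5) was compared with limma 3.58.1 in R 4.3.3 (mean-variance trend, two-sided, Benjamini-Hochberg over 12486 genes whose mean reached 0.5 RPKM); the scale understates changes of low genes. The fit was tested on simulated data in which only a small share of genes changed, unlike here, so that test does not bear on the share called. Read counts were not used. With 2 libraries a group, a call rests on the variance pooled across genes. Members and lists were chosen with earlier results of these data known. List symbols were matched for 169 of 170 genes, by symbol or Ensembl ID. Named genes were Hnrnpk, the members, Esrrb, the 3 profiles nearest to the member that changed most, and up to 4 called genes of largest change in each pathway list; others were named after their values were seen. BLAST 2.17.0 of each member's longest coding transcript at 95% identity over at least 100 bases found at most 2.3% shared with other genes (Fnip2), and no member's exons overlapped another gene's in GENCODE M21. Alternatives were other added constants, filters, scalings, GC trend removal, no variance trend, a replicate block and leaving out each library.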

Additional observations from a re-analysis of the deposited data

How the results depend on the processing

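Over 13 alternatives, Flcn and Fnip1 stayed called higher and Tfe3 and Fnip2 called lower; the log2 change ranged from 1.13 to 1.28 for Flcn, 0.51 to 0.75 for Fnip1, -0.53 to -0.47 for Tfe3 and -0.69 to -0.59 for Fnip2, and from -1.81 to -1.70 for Hnrnpk. Tfeb was called under quantile normalization (0.22), with GC trends removed (0.41) and without control replicate 1 (0.25), and ranged from 0.060 to 0.25 when single libraries were left out; Mitf was called with GC trends removed (-0.23). The cause was not tested. Members called numbered 4 to 6 and all genes called 6809 to 8622. With the replicate number as a block, 4 members and 8622 genes were called, and no member's call changed, while list genes that gained a call included Sec13, Itfg2, Gsk3b and Esrrb; same-numbered samples share only a number (correlation of deviations across genes 0.027).

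Of 517 values of the other genes named by the rule, 505 kept direction and call, 9 lost the call, 3 gained one (all Esrrb) and none reversed, and 222 of 234 list counts stayed within 1.5 times. With no filter on low values, other E-box factors called lower went from 11 to 7 and higher from 4 to 1, amino acid sensing genes called higher from 3 to 1, and formative and primed genes called lower from 5 to 3. Under quantile normalization, Rag and Ragulator genes called lower went from 1 to 2. Formative and primed genes called higher went from 2 to 1 with a minimum mean of 1 RPKM, without control replicate 1 and without either Hnrnpk siRNA replicate. Absolute read depth is unknown, so the precision of Tfec and other genes near 0 cannot be given.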

Other observations

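The other E-box binding factors of the helix-loop-helix leucine zipper class were more often called lower than higher after Hnrnpk siRNA. Of 18 tested, 4 were called higher and 11 lower, against 32.2% and 35.0% of all genes tested, with a median log2 change of -0.26; with no filter on low values, 1 was called higher and 7 lower. Mycn, the MYC gene most active in early embryos, went from 79.1 and 84.0 RPKM to 42.0 and 41.2 RPKM (log2 change -0.96, SE 0.0628, limma adjusted p = 1.56e-06). Mlxipl, the glucose-responsive factor ChREBP, Mycl and Mxd3 had log2 changes of -0.99, -0.86 and -0.83. Myc was called higher at 0.61 (limma adjusted p = 0.0293), but its control libraries stood at 18.3 and 34.4 RPKM against 39.2 and 37.8 RPKM after Hnrnpk siRNA, and without control replicate 1 the change was 0.16 and not called; the call was also lost without Hnrnpk siRNA replicate 1 (0.58). The other genes called higher were Mxd1 (0.56), Mxd4 (0.48) and Mlx (0.26, and 0.19 and not called without Hnrnpk siRNA replicate 2), named like Myc after their values were seen.

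Naive pluripotency factors had 7 of 12 tested genes called higher and 2 lower, and formative and primed genes 2 of 8 higher and 5 lower, beside 32.2% and 35.0% of all genes tested. With no filter on low values, 5 naive factors were called higher and 2 lower. Klf5, named after its values were seen, was called higher at 0.16 (limma adjusted p = 0.0484). Its call was lost under quantile normalization (0.040), with GC trends removed (0.145), with no variance trend, and when any single library was left out (0.14 to 0.17). Klf2, named likewise, was called higher at 0.26 and lost its call without Hnrnpk siRNA replicate 2 (0.198). Esrrb, the TFE3 target, was at 150 and 125 RPKM with control siRNA, against 155 and 149 RPKM with Hnrnpk siRNA, with a log2 change of 0.15 that was not called (limma adjusted p = 0.146); it was called without control replicate 1 (0.28), with GC trends removed (0.23) and with the replicate number as a block (0.15, limma adjusted p = 0.0478). Tbx3 rose from 16.4 and 14.8 RPKM to 64.0 and 61.1 RPKM and Tfcp2l1 from 40.9 and 32.9 RPKM to 106 and 94.2 RPKM, with log2 changes of 1.97 and 1.44, while Dppa3 fell by 0.82 on the log2 scale. In the other list, Zic2, Dnmt3b and Pou3f1 had log2 changes of -1.44, -1.14 and -1.06. Otx2 was called higher at 0.44 and was named after its values were seen. The brachyury gene T was called higher at 0.53, from 0.361 and 0.846 RPKM to 1.07 and 1.03 RPKM, and lost its call without control replicate 1 (0.20) and without either Hnrnpk siRNA replicate (0.51 and 0.55).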
